A study of Mus musculus with 8 samples.

Results

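Cholesterol synthesis in the mouse pineal gland was followed through 8 genes, Srebf2, Insig1, Hmgcs1, Idi1, Fdps, Sqle, Lss and Cyp51. They are the rows that carry these gene names among the 53710 rows of the deposited expression table, and all 8 names were found once among its protein-coding genes. RNA sequencing was performed on 8 libraries, 4 of wild type (WT) and 4 of 5xFAD pineal glands, and each library was made from glands pooled from 5 to 7 mice. Both groups were described as male and 5 months of age, were killed at zeitgeber time 0.5 (hours after lights on), and differed in genotype and supplier, the WT mice being C57BL/6 from Koatech and the 5xFAD mice coming from The Jackson Laboratory. Supplier and genotype therefore cannot be told apart. 5xFAD mice, on a B6 background, carry human transgenes with familial Alzheimer's disease mutations under the Thy1 promoter, which is active in neurons, and they model the deposition of amyloid-beta rather than the whole disease. No source used here states whether the transgenes are active in pinealocytes.

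Cells build cholesterol from acetyl-CoA through the mevalonate pathway, which ends in farnesyl diphosphate, and through a sterol branch that turns this compound into squalene, lanosterol and cholesterol. The transcription factor SREBP2, made from Srebf2, is held in the endoplasmic reticulum by INSIG proteins while sterols are plentiful, and it is released to activate nearly every gene of the route when sterols fall. In the adult brain most cholesterol is made locally, since lipoproteins of the blood do not cross the blood-brain barrier, whereas the vessels of the pineal gland lack this barrier.

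Regulatory sequence of the members is shown first, since genes of this route are known to share control by SREBP2 together with the factors NF-Y and Sp1. The RefSeq promoter table (GRCm38.p6, from 250 bases before to 50 bases after the transcription start) held 6 of the 8 members, all but Sqle and Fdps. A sterol regulatory element of the form TCACNCCAC, searched on both strands, stood in 1 of the 6, Hmgcs1, at positions -137 to -129 from the start, and in 1.24% of all 32851 promoters of the table. The shorter form CACCCCAC, which overlaps it in Hmgcs1, was also found in that member alone and in 2.87% of all promoters. The NF-Y motif CCAAT was present in 6 of 6 members and in 37.4% of all promoters. The Sp1 motif GGGCGG was likewise present in 6 of 6 and in 35.7% of all promoters. An E-box CACGTG lay in Insig1 at -101 to -96 and in 7.15% of all promoters. Such matches are a description of letters, and a promoter without a match may be bound through other letters or outside this window. The 180 bases before the start are given for 4 members, on the strand of the gene, with matches to these motifs on either strand in capitals (ATTGG and CCGCCC are the NF-Y and Sp1 motifs read on the other strand): Hmgcs1, which holds the sterol element (chr13:119690171-119690350, plus strand), Idi1, which had the largest difference between the groups (chr13:8885426-8885605, plus strand), Insig1, which holds the E-box (chr5:28071232-28071411, plus strand), and Srebf2, the regulator (chr15:82147089-82147268, plus strand).
Hmgcs1: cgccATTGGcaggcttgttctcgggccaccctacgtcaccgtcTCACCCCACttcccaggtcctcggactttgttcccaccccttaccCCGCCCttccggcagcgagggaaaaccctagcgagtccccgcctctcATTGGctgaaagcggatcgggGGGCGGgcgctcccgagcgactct
Idi1: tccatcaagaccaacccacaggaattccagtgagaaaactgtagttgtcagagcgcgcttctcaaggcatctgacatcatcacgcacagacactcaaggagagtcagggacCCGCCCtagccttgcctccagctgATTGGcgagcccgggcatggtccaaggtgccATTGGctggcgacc
Insig1: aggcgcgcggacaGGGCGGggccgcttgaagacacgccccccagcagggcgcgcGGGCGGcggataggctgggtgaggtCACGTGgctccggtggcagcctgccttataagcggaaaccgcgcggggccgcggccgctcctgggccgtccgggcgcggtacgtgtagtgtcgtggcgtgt
Srebf2: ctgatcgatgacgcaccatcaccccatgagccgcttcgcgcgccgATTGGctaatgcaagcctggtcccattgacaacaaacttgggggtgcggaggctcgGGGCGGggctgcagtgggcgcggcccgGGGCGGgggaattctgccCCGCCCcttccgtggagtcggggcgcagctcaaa

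**Figure D1:**
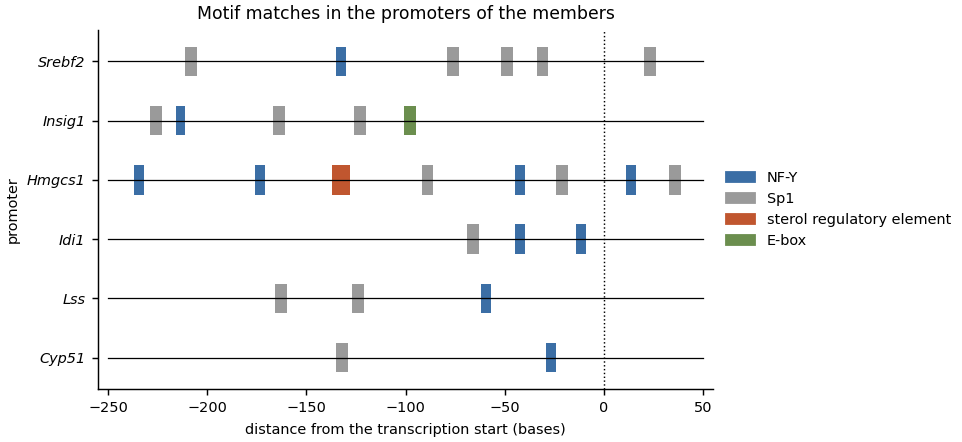
Motif matches (coloured boxes) by distance in bases from the transcription start in the 6 members with a RefSeq promoter, from 250 bases before to 50 bases after the start. Every promoter holds an NF-Y and an Sp1 match. Hmgcs1 alone matches the form TCACNCCAC of the sterol regulatory element, at -137 to -129, and only this form of the element is drawn.

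The values are FPKM, sequenced fragments scaled to the length of the transcript and to the depth of the library, so that levels can be compared between genes of different length. Hmgcs1 was the most abundant member, with a mean of 43.1 FPKM over the 8 libraries, followed by Fdps at 28.7, Insig1 at 21.4, Sqle at 19.5, Srebf2 at 15.6, Cyp51 at 10.1, Lss at 7.02 and Idi1 at 2.92 FPKM. The order was firm at its low end, where Cyp51 stood above Lss and Lss above Idi1 in 8 of 8 libraries, and least firm between Insig1 and Sqle, which kept it in 5 of 8. Steps between FPKM values of short single-transcript genes placed 1 fragment on a transcript of 2000 nt at 0.0279 to 0.0455 FPKM. On the longest coding transcript, Idi1 therefore rested on about 63 to 306 fragments per library, a counting error of 12.6% at the lowest, and Hmgcs1 on 1242 to 4510, an error of 2.84%.

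A pair of libraries, WT-22 and 5xFAD-2, stood apart and touch the results below. In WT-22, Xist, the RNA that silences an X chromosome in female cells, was at 13.3 FPKM against 0.0048 to 0.0404 FPKM in the other 7 libraries, while the Y-linked Ddx3y was at 32.0 FPKM, against 38.7 to 59.4, Kdm5d at 9.04 FPKM, the lowest of the 8 values, and Eif2s3y at 39.1 FPKM, inside the 31.5 to 47.6 of the others. This library therefore went against the description of its mice as male. In 5xFAD-2, the 7 fat cell markers examined summed to 1042 FPKM, against 12.3 to 29.1 in the WT libraries and 13.4 to 76.0 in the other 5xFAD libraries. Ucp1, the uncoupling protein of brown fat, was at 516 FPKM and Adipoq, a fat cell hormone, at 62.2 FPKM there, and both lay at or below 0.305 FPKM in the other 7. The comparisons of the members are therefore given also without each of them. The 8 pinealocyte markers were present throughout and summed to 1322 to 3027 FPKM in WT and 2022 to 3360 FPKM in 5xFAD. Their median log2 fold change (defined below) was 0.30. Gngt1 was at 1.16 (limma, unadjusted p = 0.0053, adjusted p = 0.541) with groups that did not overlap. Sag was at 0.89 (limma, unadjusted p = 0.0454, adjusted p = 0.623), and Asmt, Crx and Lhx4 lay below 0. Sums of osteoblast, neutrophil and meningeal fibroblast markers varied as well, the last from 392 to 2139 FPKM in WT and from 335 to 850 FPKM in 5xFAD. Of the WT libraries, WT-22 had the highest pinealocyte sum and the lowest osteoblast, neutrophil and fibroblast sums. The 6 astrocyte markers gave sums of 128 to 143 FPKM in WT and of between 182 and 202 FPKM in 5xFAD, except for 5xFAD-21 with a sum of 117 FPKM. Their median log2 fold change was 0.45, and Aldoc, a glycolytic aldolase of astrocytes, was at 0.77 (limma, unadjusted p = 0.0025, adjusted p = 0.516) with groups that did not overlap. Oligodendrocyte and Schwann cell markers summed to 27.7 to 90.7 FPKM in WT and 34.3 to 91.7 FPKM in 5xFAD, with a median log2 fold change of -0.07. Macrophage and microglia markers summed to 79.4 to 187 FPKM in WT and 69.3 to 149 FPKM in 5xFAD, with a median of -0.42. The part of all these cell types in the levels of the members was not tested, and in whole glands fewer cells of a type and less RNA per cell cannot be told apart.

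The comparison of 5xFAD with WT glands asked whether the level of each transcript differs with the transgenes. All 8 members had a higher mean log2 level in 5xFAD, and 0 of 8 passed an adjusted p under 0.05 (limma, adjusted over the 13094 protein-coding genes with a mean of at least 1 FPKM), a threshold that 0.0382% of those genes passed. Fold changes are on the log2(FPKM + 0.1) scale, 5xFAD over WT, and their median over the members was 0.45, against -0.01 over all genes tested. Of all genes 48.7% lay above 0. At an unadjusted p under 0.05, 3 of 8 members were higher in 5xFAD (Idi1, Fdps and Sqle), against 4.6% of all genes, and 0 of 8 were lower, against 3.35%. In 1 member, Idi1, every 5xFAD library lay above every WT library, which held for 2.11% of all genes. Members were not chosen independently of these data, so that these shares describe the genes and test nothing.

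**Figure D2:**
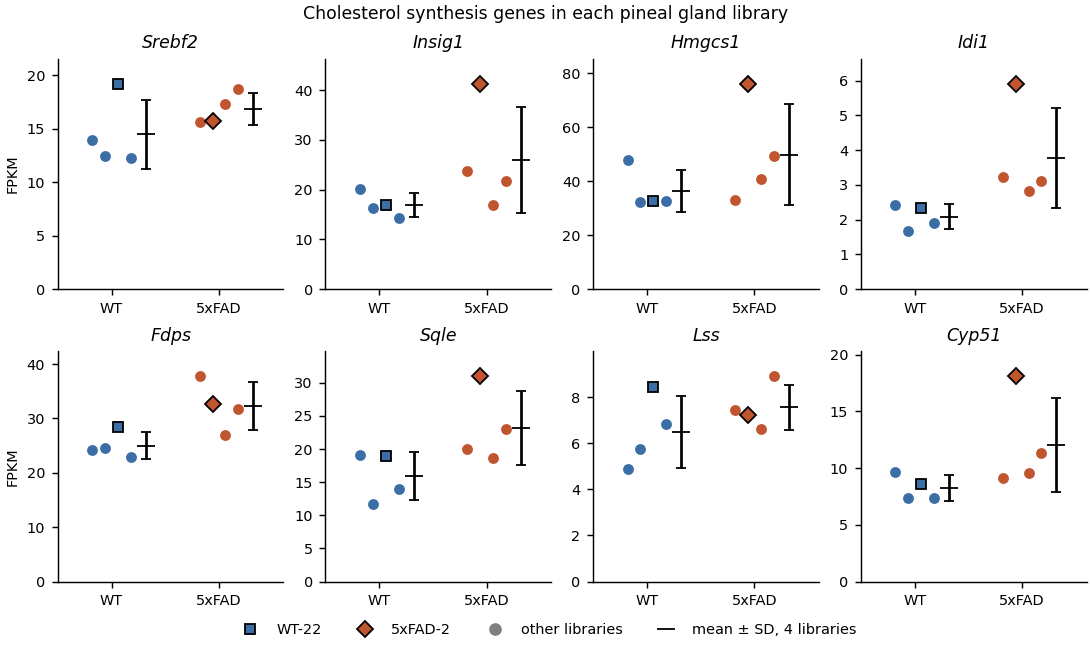
FPKM of each member in every library, with WT in blue, 5xFAD in orange, and WT-22 (square) and 5xFAD-2 (diamond) marked, and bars for the mean ± SD of 4 libraries. The groups are apart in Idi1 alone (1.67 to 2.41 against 2.82 to 5.91 FPKM), and 5xFAD-2 is the highest library for 5 of the 8 genes.

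Among the regulators, Srebf2, which encodes the transcription factor itself, measured 13.97 FPKM in WT-11, 12.4 in WT-21, 19.2 in WT-22 and 12.2 in WT-23. In 5xFAD-1 it was at 15.6 FPKM, in 5xFAD-2 at 15.7, in 5xFAD-3 at 17.3 and in 5xFAD-21 at 18.7. The highest of all 8 values was that of WT-22, and the other 3 WT libraries lay below every 5xFAD library. Its log2 fold change was 0.24 ± 0.16 (SE; limma, unadjusted p = 0.163, adjusted p = 0.709; exact permutation p = 0.171). Without WT-22 it was 0.38 (limma, unadjusted p = 0.0092, adjusted p = 0.163). Insig1 encodes a sterol-sensing anchor that keeps SREBP2 in the endoplasmic reticulum, and is itself induced by SREBP2. In the same order of libraries it measured 20.1, 16.2, 16.9 and 14.4 FPKM in WT and 23.7, 41.3, 16.97 and 21.7 FPKM in 5xFAD. The value of 5xFAD-2 stood well above the rest, and 5xFAD-3 lay inside the WT range. The log2 fold change of Insig1 was 0.54 ± 0.25 (SE; limma, unadjusted p = 0.0604, adjusted p = 0.629; exact permutation p = 0.0571) and was 0.29 without 5xFAD-2 (limma, unadjusted p = 0.109).

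Of the enzymes of the mevalonate steps, Hmgcs1, the cytosolic HMG-CoA synthase, measured 47.9, 32.5, 32.6 and 32.6 FPKM in WT and 33.1, 76.2, 41.0 and 49.2 FPKM in 5xFAD. WT-11 was nearly as high as 5xFAD-21, the other 3 WT libraries were nearly equal, and 5xFAD-1 lay among the WT values. Its log2 fold change was 0.40 ± 0.25 (SE; limma, unadjusted p = 0.144, adjusted p = 0.698) and fell to 0.18 without 5xFAD-2 (limma, unadjusted p = 0.382). Idi1, the isomerase that makes dimethylallyl diphosphate, measured 2.41, 1.67, 2.34 and 1.90 FPKM in WT and 3.22, 5.91, 2.82 and 3.10 FPKM in 5xFAD. The groups did not overlap, and the mean of 5xFAD was 1.81 times that of WT, or 1.47 times without 5xFAD-2. Idi1 had the largest log2 fold change of the members, 0.78 ± 0.26 (SE; limma, unadjusted p = 0.0152, adjusted p = 0.58), and its exact permutation p of 0.0286 is the smallest that 4 against 4 libraries allow. Without 5xFAD-2 the log2 fold change was 0.54 (limma, unadjusted p = 0.0271, adjusted p = 0.894). Fdps, the farnesyl diphosphate synthase at the branch point of the pathway, measured 24.1, 24.6, 28.5 and 22.9 FPKM in WT and 37.8, 32.6, 27.0 and 31.8 FPKM in 5xFAD. Only 5xFAD-3 fell within the WT range, below WT-22, and here 5xFAD-1 rather than 5xFAD-2 was highest. The log2 fold change of Fdps was 0.36 ± 0.12 (SE; limma, unadjusted p = 0.018, adjusted p = 0.588; exact permutation p = 0.0571) and was 0.35 without 5xFAD-2 (limma, unadjusted p = 0.0376).

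On the sterol branch, Sqle, the squalene epoxidase and a rate-limiting enzyme of the route, measured 19.03, 11.67, 18.99 and 13.9997 FPKM in WT and 19.94, 31.00, 18.62 and 23.02 FPKM in 5xFAD. WT-11 and WT-22 reached the level of 5xFAD-3, and the other WT libraries lay below every 5xFAD library. Its log2 fold change was 0.54 ± 0.21 (SE; limma, unadjusted p = 0.0319, adjusted p = 0.6; exact permutation p = 0.0857), and 0.39 without 5xFAD-2 (limma, unadjusted p = 0.084). Lss, the lanosterol synthase that closes the sterol rings, measured 4.86, 5.77, 8.46 and 6.84 FPKM in WT and 7.46, 7.24, 6.62 and 8.91 FPKM in 5xFAD. WT-22 exceeded 3 of the 4 5xFAD libraries. The log2 fold change of Lss was 0.24 ± 0.18 (SE; limma, unadjusted p = 0.223, adjusted p = 0.743), and without WT-22 it was 0.38 (limma, unadjusted p = 0.0476, adjusted p = 0.272). It was 0.11 without WT-11 and 0.16 without 5xFAD-21. Cyp51, the lanosterol 14-alpha demethylase, measured 9.68, 7.39, 8.60 and 7.35 FPKM in WT and 9.14, 18.1, 9.56 and 11.3 FPKM in 5xFAD. WT-11 lay above 5xFAD-1 and 5xFAD-3, and 5xFAD-2 was highest by far. Its log2 fold change was 0.49 ± 0.22 (SE; limma, unadjusted p = 0.0517, adjusted p = 0.629), and 0.28 without 5xFAD-2 (limma, unadjusted p = 0.0973).

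With 5xFAD-2 left out, all 8 log2 fold changes stayed above 0, between 0.18 for Hmgcs1 and 0.54 for Idi1, with a median of 0.28, and Srebf2 and Lss, at 0.27 and 0.26, were nearly the same as with all libraries. At an unadjusted p under 0.05, Idi1 and Fdps, 2 of 8 members, were then higher, against 3.09% of all genes. With WT-22 left out, the median was 0.47, and 5 of 8 members (Srebf2, Idi1, Fdps, Sqle and Lss) had an unadjusted p under 0.05, against 9.65% of all genes. Again 0 of 8 passed the adjusted threshold, which 0.718% of all genes passed without WT-22, and the smallest adjusted p among the members was 0.163, that of Srebf2 (limma). The log2 fold changes without WT-22 ranged from 0.36 for Hmgcs1 to 0.84 for Idi1, with Fdps at 0.43, Cyp51 at 0.51, Insig1 at 0.54 and Sqle at 0.63. With both libraries left out, a choice made after the values were seen, the median was 0.40 and 4 of 8 members (Srebf2, Idi1, Fdps and Sqle) had an unadjusted p under 0.05 (limma), against 8.33% of all genes. The count also turned on other libraries, being 1 of 8 without WT-23 (2.86% of all genes) and 5 of 8 without 5xFAD-3 (4.81%). It was 5 of 8 after scaling to equal protein-coding totals (6.77% of all genes) and 1 of 8 with the replicate number as a block (2.96%). The libraries also fell into 2 sets by their share of unread bases in the sequencing summary of the study, a low set of WT-11 and all 5xFAD libraries but 5xFAD-21, and a high set of the other 4. Each set held 1 library of a group, and no test was run within it. Within the low set the difference of mean log2 values was above 0 for 7 of 8 members, from 0.21 for Srebf2 to 0.63 for Idi1, and was -0.03 for Hmgcs1. Within the high set it was above 0 for 8 of 8, from 0.33 for Fdps to 0.65 for Sqle. With the set as a term in the fit of all 8 libraries, the median over the members was 0.40, Idi1 was at 0.64 (limma, unadjusted p = 0.0641) and Fdps at 0.37 (limma, unadjusted p = 0.038), and Lss was at 0.45 (limma, unadjusted p = 0.0261).

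**Figure D3:**
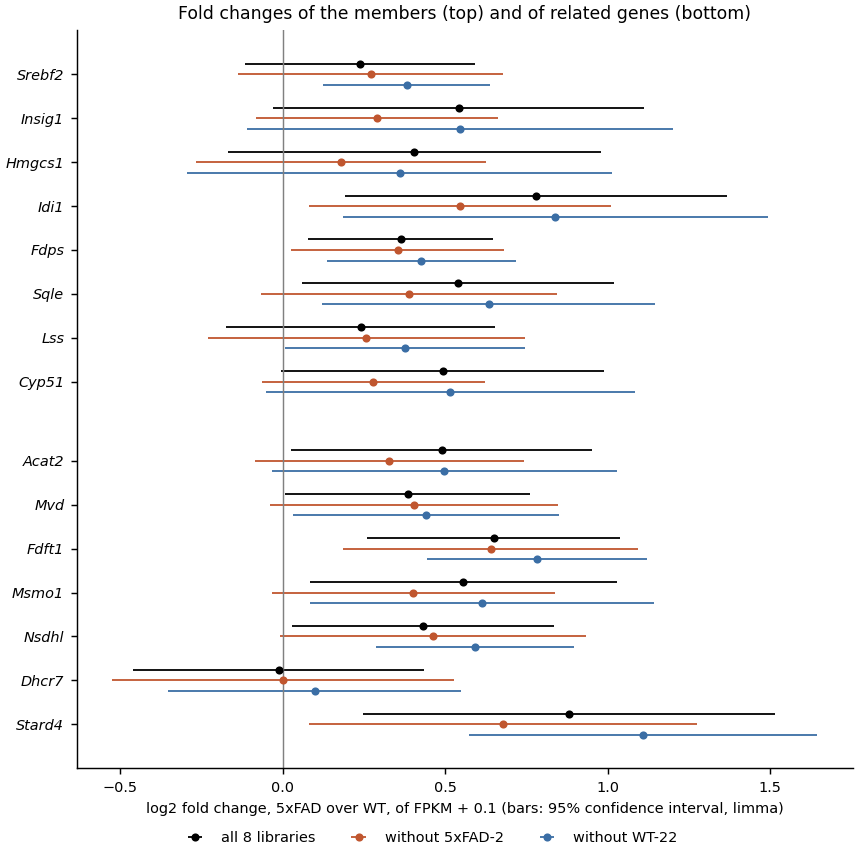
Log2 fold change of 5xFAD over WT, on the log2(FPKM + 0.1) scale, with its 95% confidence interval (limma) for the 8 members and selected related genes of the pathway, for all 8 libraries (black), without 5xFAD-2 (orange) and without WT-22 (blue). The related genes are Acat2, Mvd, Fdft1, Msmo1, Nsdhl, Dhcr7 and Stard4. They do not stand for all 70 pathway genes tested, of which 45 lay above 0 and 25 below. Scarb1 (-0.46) and Scap (-0.30) are not drawn. Every point of the members lies above 0, and the intervals of Idi1 and Fdps stay above 0 in all 3 sets of libraries. In fits not drawn, the interval of Fdps began below 0 without WT-23 (-0.007), without 5xFAD-1 (-0.0009) and with the replicate block (-0.011). That of Idi1 began below 0 with the set of unread bases as a term (-0.048).

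The members divided by how they behaved in 5xFAD-2. Insig1, Idi1, Hmgcs1, Cyp51 and Sqle were at 1.99, 1.94, 1.85, 1.81 and 1.51 times the mean of the other 3 5xFAD libraries. Fdps, Lss and Srebf2 were at 1.01, 0.945 and 0.912 times that mean. 5xFAD-2 was thus the highest of the 8 libraries for 5 of 8 members, against 16.9% of all genes tested. Genes of fatty acid synthesis, which are driven mainly by the related factor SREBP1 and are abundant in fat cells, were not alike in that library. It was the highest library for 6 of the 11 examined, and 4 of them exceeded the ratio of every member. Scd1, the stearoyl-CoA desaturase, was at 20.1 times and Fasn, the fatty acid synthase, at 12.5 times the mean of the other 5xFAD libraries, Acaca, the acetyl-CoA carboxylase, at 3.51 times and Elovl6, a fatty acid elongase, at 3.31 times. The other 7 lay between 0.958 times for Acly, the ATP citrate lyase, and 1.59 times for Acss2, an acetyl-CoA synthetase. Fat cell markers were highest in the same library, and their part in the levels of the members there was not tested. In WT-22, by contrast, Srebf2 and Lss were at 1.49 and 1.45 times the mean of the other 3 WT libraries, Sqle at 1.27, and Hmgcs1 at 0.867 times.

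**Figure D4:**
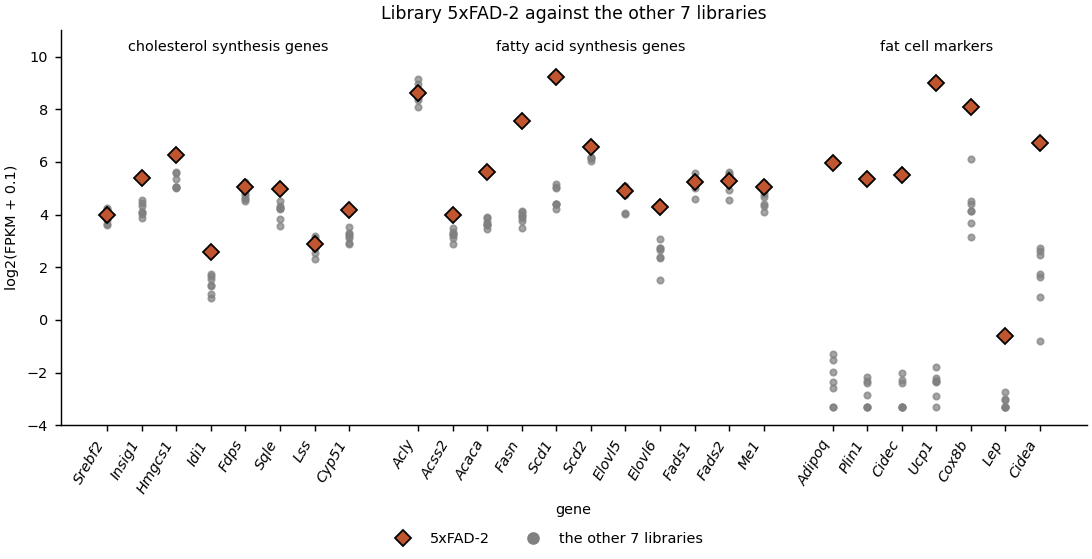
Levels, as log2(FPKM + 0.1), of the 8 members, of 11 genes of fatty acid synthesis and of 7 fat cell markers in 5xFAD-2 (diamonds) and in each of the other 7 libraries (grey points). 5xFAD-2 lies above all others for 5 members, by far less than for Scd1, Fasn or the fat cell markers such as Ucp1 (516 FPKM).

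Across the 8 libraries the levels of the members varied in part together. Over their 28 pairs, the Pearson correlation of log2 values had a median of 0.64 and ranged from 0.0085 between Hmgcs1 and Lss to 0.951 between Idi1 and Cyp51, and the median was 0.63 without 5xFAD-2. These correlations rest on 8 libraries that share 2 groups and are given as a description. The median centred log2 level of the members was, in the same order, -0.08, -0.33, -0.08 and -0.37 in WT, and 0.10, 0.80, -0.02 and 0.24 in 5xFAD. Every 5xFAD library thus stood above every WT library on this median, by a narrow margin for 5xFAD-3. When all 13094 genes were ranked by the correlation of their log2 level with the mean of the members, Msmo1, the sterol 4-methyl oxidase, was at rank 12 (r = 0.964, rho = 0.905, n = 8). Stard4, a carrier of cholesterol within cells, was at rank 23 (r = 0.945, rho = 0.952). Without 5xFAD-2 and WT-21, the libraries whose mean over the members lay farthest from the median of these means, r was 0.886 for Msmo1 and 0.873 for Stard4. The genes outside the pathway lists with the highest r were Il1b (0.978), Cacybp (0.977), Pigf (0.976), Zfp655 (0.973) and Spty2d1 (0.971).

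**Figure D5:**
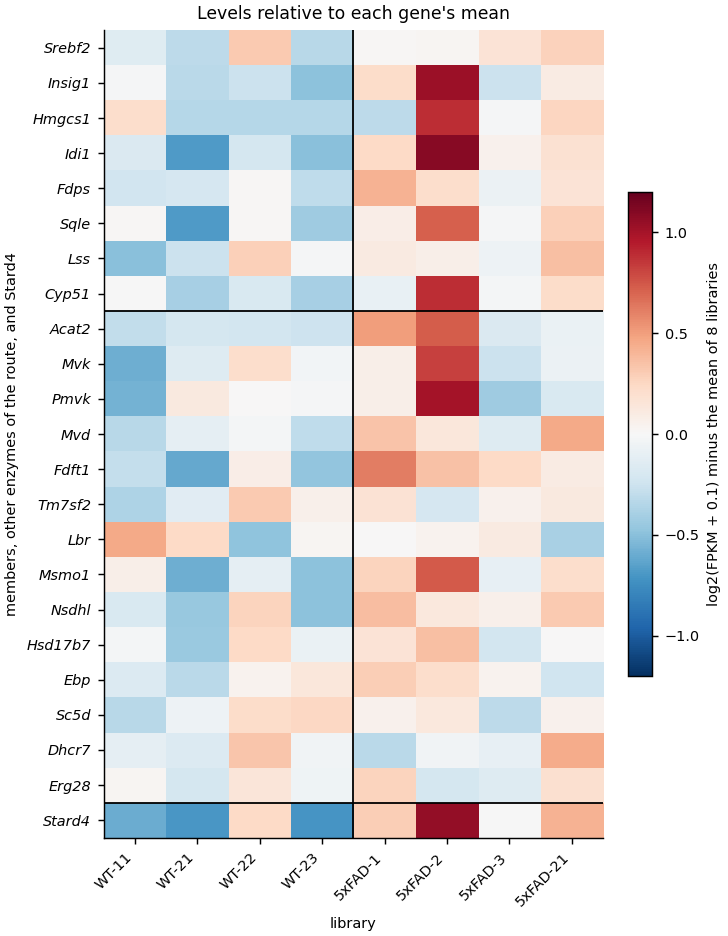
Log2(FPKM + 0.1) minus each gene's mean over the 8 libraries (colour), for the members (top), other enzymes of the route (middle) and Stard4 (bottom), with libraries in columns and WT left of the line. 5xFAD-2 carries the highest values of Insig1, Hmgcs1, Idi1, Sqle and Cyp51, while Srebf2 is highest in WT-22.

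The rest of the route was examined with lists of pathway genes. The list of 7 other genes of the mevalonate steps also held Fdft1, although its enzyme makes squalene and so belongs to the sterol branch. Of these genes 6 were tested, since Idi2 is listed at 0 in all libraries. All 6 had a log2 fold change above 0, against 48.7% of all genes, with a median of 0.35. Of them 3 had an unadjusted p under 0.05 (limma), against the 4.6% of all genes that were higher at it. Fdft1, the squalene synthase that uses the product of Fdps, had the smallest p. It measured 22.5, 18.0, 29.1 and 19.9 FPKM in WT and 42.2, 35.2, 32.5 and 29.5 FPKM in 5xFAD. Its groups did not overlap, with every 5xFAD library above every WT library, as in 2.11% of all genes. Its log2 fold change was 0.65 ± 0.17 (SE; limma, unadjusted p = 0.0045, adjusted p = 0.541), 0.64 without 5xFAD-2 and 0.78 without WT-22. Acat2, which makes acetoacetyl-CoA, was at 0.49 (limma, unadjusted p = 0.0407). Its groups did not overlap, but 5xFAD-3 (7.03 FPKM) and 5xFAD-21 (7.53 FPKM) lay close above the highest WT value of 6.85 FPKM. The mean of Acat2 in 5xFAD was 1.46 times that of WT, or 1.29 times without 5xFAD-2. Mvd, the mevalonate diphosphate decarboxylase, was at 0.38 (limma, unadjusted p = 0.0467).

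Among the 10 enzymes from lanosterol to cholesterol beside Cyp51, 7 lay above 0 and 3 below, with a median of 0.11. Against the 4.6% of all genes, 2 were higher at an unadjusted p under 0.05. These were Msmo1 at 0.56 (limma, unadjusted p = 0.0262) and Nsdhl, a sterol dehydrogenase, at 0.43 (limma, unadjusted p = 0.0389). The mean of Msmo1 in 5xFAD was 1.48 times that of WT, or 1.31 times without 5xFAD-2. Dhcr7, which makes cholesterol from its direct precursor, was at -0.01 (limma, unadjusted p = 0.95). Over all 22 enzymes of the route that were tested, the 6 enzymes among the members included, 19 lay above 0 and 3 below, the median was 0.32, and 8 had an unadjusted p under 0.05, all of them higher in 5xFAD, against the 4.6% given above. 5xFAD-2 was the highest library for 10 of the 22.

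Genes that control SREBP processing did not share this direction. Of 12 tested, 5 lay above 0 and 7 below, where 48.7% of all genes lay above 0. Of these 12, 0 had an unadjusted p under 0.05. The smallest was that of Pgrmc1, a partner of INSIG proteins, at 0.21 (limma, unadjusted p = 0.0653). In Pgrmc1, 1 of the 12, every 5xFAD library lay above every WT library, as in 2.11% of all genes. Srebf1, the gene of SREBP1, was at 0.10 (limma, adjusted p = 0.892), Scap, the escort protein of SREBPs, at -0.30 (adjusted p = 0.698), and Insig2, the relative of Insig1, at -0.02 (adjusted p = 0.98). Of 9 uptake and transport genes tested, 4 lay above 0 and 5 below. Stard4 measured 5.48, 5.07, 9.84 and 5.06 FPKM in WT and 10.3, 17.4, 8.28 and 11.1 FPKM in 5xFAD, with WT-22 above 5xFAD-3. Its log2 fold change was 0.88 (limma, unadjusted p = 0.012, adjusted p = 0.559), and 0.68 without 5xFAD-2. Scarb1, the HDL receptor, went the other way at -0.46 (limma, unadjusted p = 0.0017, adjusted p = 0.481), with 14.3, 14.3, 13.4 and 12.8 FPKM in WT and 10.8, 9.11, 10.7 and 9.26 FPKM in 5xFAD, all below WT. Among 8 genes of cholesterol efflux and its regulators the LXRs, 3 lay above 0 and Nr1h3, the gene of LXR-alpha, was at 0.56 (limma, unadjusted p = 0.0444). The 6 esterification and oxysterol genes tested had a median of 0.21, the 8 genes that use farnesyl diphosphate for other products one of 0.12, and the 11 genes of fatty acid synthesis one of 0.35, and of these lists Me1, the malic enzyme, alone had an unadjusted p under 0.05, at 0.50 (limma, unadjusted p = 0.026). Over all 70 pathway genes tested beside the members, 0 passed the adjusted threshold, which 0.0382% of all genes passed, and the median log2 fold change was 0.10. At an unadjusted p under 0.05 (limma), 9 were higher, against 4.6% of all genes, and 1 was lower, against 3.35%.

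In the GENCODE M21 annotation of GRCm38, the members lie on chromosomes 3 (Fdps), 5 (Cyp51 and Insig1), 10 (Lss), 13 (Idi1 and Hmgcs1) and 15 (Sqle and Srebf2), so that no more than 2 share a chromosome. Exons of Fdps overlap those of Gm43738 on the same strand, and exons of Cyp51, Lss, Idi1 and Hmgcs1 overlap a gene on the other strand. The library kit marks strand, but the strand setting of the counting is not given in the sources used here, so reads of these 5 members could be shared with their neighbours. Sqle, Insig1 and Srebf2 have no such overlap.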

How the data were processed

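Total RNA of pooled pineal glands, cleared of ribosomal RNA, was made into stranded libraries and sequenced in pairs with 100 cycles. Per the labels and the methods of the study, the authors trimmed reads with Trimmomatic, aligned them to mm10 (GRCm38.p6) with STAR and computed FPKM with Cuffnorm on GENCODE M17, and the deposited table holds FPKM of 53710 genes in 8 libraries. Tool versions and the library normalization of Cuffnorm are not given in the sources used here. The file's mean over all libraries was not used.

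From these FPKM, groups were compared with limma 3.58.1 in R 4.3.3 (lmFit, eBayes with a trend on the mean, two-sided) on log2(FPKM + 0.1), for 13094 protein-coding genes with a mean of at least 1 FPKM, with no covariate and Benjamini-Hochberg adjustment over all of them. All 8 members passed this filter. The pseudocount makes fold changes of low genes smaller, mostly that of Idi1. Exact permutation tests took all 70 ways to choose 4 of 8 libraries (two-sided). The fit was tested on simulated data. Python 3.11.15 handled the tables. Each library is a pool of glands, and p-values measure the spread between pools. The GC rate of the libraries in the study's sequencing summary parted the groups fully and cannot be told apart from genotype.

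The members, gene lists and tests were chosen with earlier results of these data known. Named were all 8 members, up to 4 genes per pathway list by unadjusted p, Fdft1, Msmo1, Dhcr7, Srebf1, Scap and Insig2, and the 5 genes most like the members. Fasn, Scd1, Acly, Elovl6, Ucp1, Adipoq, Aldoc, Gngt1, Sag, Asmt, Crx, Lhx4 and the genes of the sex check were picked once their values had been seen. Some genes that this rule covers are counted in the lists but not reported here. Soat2 fell below the filter, and Erg28 was matched by its Ensembl ID. Promoters and motifs come from RefSeq tables of GRCm38.p6. Alternatives were other pseudocounts (0.01 and 1), filters (none, or a mean of 5 FPKM) and scalings, a term for unread bases, a replicate block, removal of the trend on GC content, no variance trend, genes of every biotype, and each library left out.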

Additional observations from a re-analysis of the deposited data

Results flagged for a closer look

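A library far from the 3 others of its group was looked for in each of the 8 members and both groups, 16 sets in all, by the gap of the extreme library to its nearest neighbour over the range of the group. It was found in 2 sets. Chance alone would flag about 1 set in 20 if the sets were independent and normally spread. The members varied in part together over the same libraries, so the count was not tested against this rate. Hmgcs1 was at 47.9 FPKM in WT-11, with the other WT libraries between 32.5 and 32.6 FPKM, a gap of 0.988 of the range. Idi1 was at 5.91 FPKM in 5xFAD-2, with the other 5xFAD libraries between 2.82 and 3.22 FPKM, a gap of 0.869 of the range. 5xFAD-2 is the library with fat cell transcripts, and their part in the level of Idi1 was not tested.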

How the results depend on the processing

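The members were compared in 21 alternative fits. In all 21, 0 members and 0 other pathway genes passed the adjusted threshold, each member tested kept a log2 fold change above 0, and the median over the members stayed between 0.28 (without 5xFAD-2) and 0.57 (without 5xFAD-1), against 0.45. Idi1 could not be tested at a minimum mean of 5 FPKM. The number of members at an unadjusted p under 0.05 was 3, and ranged from 1 (without WT-23) to 5 (without WT-22, and without 5xFAD-3) when a library was left out. It was 5 after scaling to equal protein-coding totals, where 6.77% of all genes were so called against 4.6% without it, and the cause was not tested. With the replicate number as a replicate block it was 1, Idi1 (limma, unadjusted p = 0.0419, adjusted p = 0.843), against 2.96% of all genes. The replicate number is the order of the libraries within each group, not a stated pairing of pools. After the group mean of each gene was subtracted from its log2 levels, libraries of the same number had correlations of -0.04, 0.21, -0.34 and 0.24 over genes. These are correlations of what remained, not of the levels. Libraries of unlike number were not compared, so these values cannot decide whether any pools were paired. On untransformed FPKM, exact permutation tests gave p = 0.0286 for Idi1 and 0.0571 to 0.286 for the other members. Since the groups of Idi1 did not overlap, its p could not differ from that on the log2 scale. Removal of the trend on GC content left the median at 0.41. Depth limits Idi1 most, and the human transgenes were not analysed here.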
